A study of Rattus norvegicus with 8 samples.

Results

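Retinoic acid, the active form of vitamin A, is made, bound and destroyed by a small set of proteins, and 9 genes of that set were followed in the cervix of pregnant rats: Stra6, Rdh10, Dhrs3, Aldh1a1, Aldh1a2, Aldh1a3, Crabp2, Cyp26a1 and Cyp26b1. They were taken as rows of a table of 29884 gene symbols, and all 9 were found and passed the filter on low counts that left 16117 genes. The set was chosen because Cyp26a1 had one of the largest falls between the groups compared here. The differences of the 9 genes between these groups are therefore given as a description, without a test.

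All animals were wild-type Sprague-Dawley rats at gestational day 17. The LPS group (4 libraries) received lipopolysaccharide, an outer membrane glycolipid of Gram-negative bacteria, into the peritoneum at 100 µg/kg, and the PBS group (4 libraries) received phosphate-buffered saline the same way. Cervix was taken 12 hours later and its total RNA was sequenced. The 4 libraries of a group are described as biological replicates, and whether each came from 1 animal is not given in the sources used here.

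Cells take up retinol from its carrier in blood through the receptor STRA6. RDH10 oxidises retinol to retinaldehyde, DHRS3 reduces retinaldehyde back to retinol, and the ALDH1A enzymes oxidise retinaldehyde irreversibly to retinoic acid. CRABP2 hands retinoic acid to its nuclear receptors (RAR, paired with RXR), while CYP26A1 and CYP26B1 hydroxylate it for removal. Cyp26a1 and Dhrs3 are known in many tissues as genes that retinoic acid itself switches on, and in the cervix vitamin A is known for keeping columnar epithelium from turning squamous.

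Libraries held 33191039 to 40634384 counts, so that 3 counts stood for 0.0734 to 0.0899 CPM (CPM being counts scaled to 1000000 per library, after TMM, which trims extreme ratios when libraries are set to a common scale). The first principal component of the 500 most variable genes (58.5% of their variance) separated LPS from PBS, and the second (16.3%) was highest in PBS replicate 1 and LPS replicate 2, which stood apart. Markers of squamous epithelium (Krt5 at 3200 ± 842 and Krt13 at 2197 ± 935 CPM in PBS, SD, n = 4) and of mucous epithelium (Muc5b at 18412 ± 4261 and Muc4 at 1025 ± 237 CPM) were abundant, and 8 of 11 decidual and placental markers with a row in the table were at 0 counts in all libraries. Neutrophil markers rose (9 of 9 tested), as did 8 of 11 macrophage markers, whereas 8 of 12 smooth muscle, 4 of 7 red cell and 3 of 11 squamous markers fell. In these 3 lists 0 markers rose in edgeR, also at an unadjusted p under 0.05, and 0 rose in DESeq2 or limma-voom. These counts come from edgeR's quasi-likelihood test at an adjusted p under 0.05 (Benjamini-Hochberg, all genes), which called 16.9% of the genes tested, 9.49% as higher and 7.45% as lower in LPS. The squamous list did not move as a whole. Krt13 was at 94.9 ± 48.5 CPM in LPS (log2 fold change -4.53, edgeR adjusted p = 0.000846). Krt5, at 2591 ± 418 CPM in LPS, did not pass (-0.30, edgeR adjusted p = 0.339). In pieces of whole cervix, fewer cells of a type and less RNA per cell cannot be told apart.

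The sequence just upstream of Cyp26a1 is shown because retinoic acid receptors are known to bind direct repeats of a hexamer, and this promoter was the one among the members that held such a repeat. RefSeq promoters (build GRCr8) were found by symbol for 8 of the 9 genes, not for Rdh10. Each window, from 250 bases before the gene's start to 50 after it, was searched on both strands for AGGTCA or AGTTCA repeated in the same direction with 5, 2 or 1 bases between the copies (4 combinations for each spacing). The 250 bases before the start of Cyp26a1, of its relative Cyp26b1 and of Dhrs3 follow, 5′ to 3′ on the gene's strand, with the hexamers of a match in capitals.
Cyp26a1, GRCr8 chr1:244883572-244883821, plus strand: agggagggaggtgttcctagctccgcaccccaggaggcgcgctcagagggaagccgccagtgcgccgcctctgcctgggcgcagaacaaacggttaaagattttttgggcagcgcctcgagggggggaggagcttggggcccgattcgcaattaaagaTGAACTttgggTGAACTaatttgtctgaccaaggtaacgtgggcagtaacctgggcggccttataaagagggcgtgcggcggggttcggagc
Cyp26b1, GRCr8 chr4:118616177-118616426, minus strand: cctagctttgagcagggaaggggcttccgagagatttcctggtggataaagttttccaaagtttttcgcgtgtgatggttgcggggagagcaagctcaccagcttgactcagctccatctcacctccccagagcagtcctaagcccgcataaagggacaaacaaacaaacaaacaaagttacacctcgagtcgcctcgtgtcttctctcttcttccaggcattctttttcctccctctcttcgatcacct
Dhrs3, GRCr8 chr5:162031603-162031852, plus strand: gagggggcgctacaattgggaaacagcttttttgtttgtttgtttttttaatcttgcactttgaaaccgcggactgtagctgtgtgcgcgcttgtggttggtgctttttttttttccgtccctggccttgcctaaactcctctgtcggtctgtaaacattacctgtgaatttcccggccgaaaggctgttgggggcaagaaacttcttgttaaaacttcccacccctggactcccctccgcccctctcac
In Cyp26a1 the capitals read TGAACT on the gene's strand, which is AGTTCA on the other strand. There the match is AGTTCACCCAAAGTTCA, a direct repeat with a spacer of 5 bases, 92 to 76 bases before the start (GRCr8 chr1:244883730-244883746). Of the 33469 promoters in the table, 10 (0.0299%) held a repeat with this spacing in any of the 4 combinations, and 3 (0.00896%) held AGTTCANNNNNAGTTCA. Repeats with a spacer of 2 or 1 were in 0.0508% and 0.0956% of promoters. In the windows of the other 7 matched genes no combination of any spacing was found. Hexamers of other spelling and bases outside the windows were not searched. A match describes letters and does not show that a factor was bound. Among the 10 genes, Tmem87a and LOC102550345 were also tested here, and neither passed (log2 fold changes of -0.32 and -0.18, edgeR adjusted p = 0.0913 and 0.762).

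Across the 9 genes, Cyp26a1 and Dhrs3 were lower after LPS and Rdh10 was higher, with no overlap between the groups, while the libraries of the other 6 overlapped. The median log2 fold change of the 9 was -0.30, against 0.01 over all genes tested. Groups did not overlap for 23.4% of all genes tested, with LPS above PBS for 12.9% and below for 10.5%. Since the set was chosen from this contrast, nothing is read from these counts. Fold changes below are log2 values with their standard error (SE), from the fit across all genes, and negative ones mean less in LPS.

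**Figure D1:**
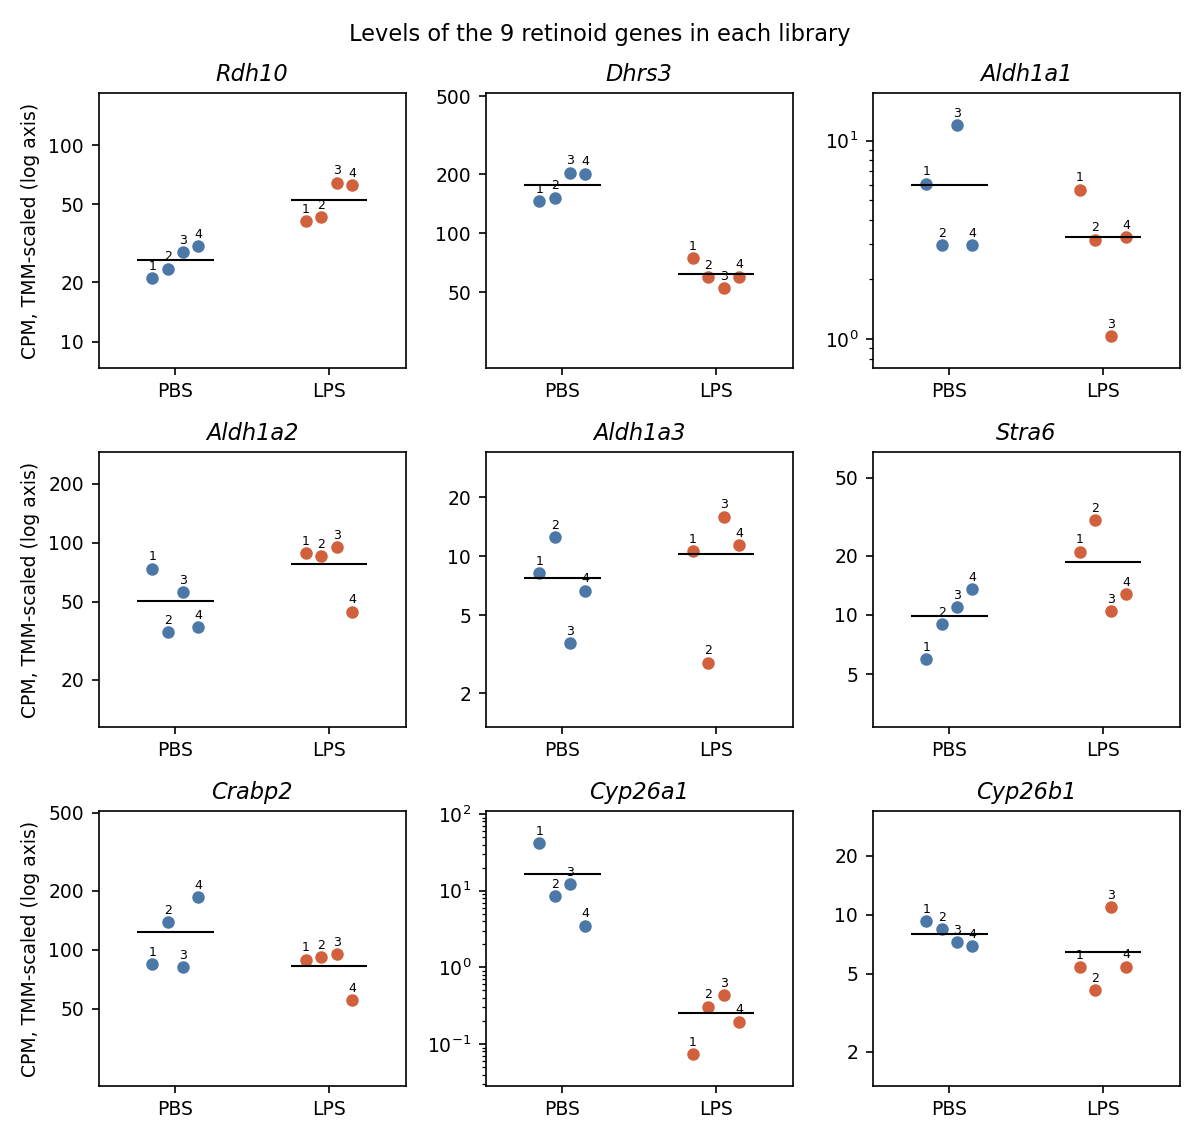
Level of each of the 9 genes in each library (points, numbered by replicate), in TMM-scaled CPM on log axes that differ between panels, with the group mean as a line (n = 4 per group). The PBS and LPS points of Rdh10, Dhrs3 and Cyp26a1 do not overlap, those of the other 6 genes do.

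Stra6, the receptor for retinol uptake, was at 5.95, 9.01, 11.0 and 13.5 CPM in PBS replicates 1 to 4 and at 21.0, 30.5, 10.5 and 12.8 CPM in LPS replicates 1 to 4. LPS replicates 1 and 2 lay above all PBS libraries, and LPS replicates 3 and 4 lay within the PBS range. The difference was 0.92 on the log2 scale (SE 0.37), and 0.58 without LPS replicate 2.

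Retinol and retinaldehyde are interconverted by Rdh10 and Dhrs3, and these 2 transcripts differed in opposite directions. Rdh10, the oxidising enzyme, was at 21.0, 23.5, 28.6 and 30.6 CPM in PBS and at 41.2, 42.9, 64.5 and 62.9 CPM in LPS. The lowest LPS library was above the highest PBS library, and LPS replicates 3 and 4 were the highest. Rdh10 was thus 2.04-fold higher in LPS (log2 fold change 1.03, SE 0.19), and the value and stayed between 0.92 and 1.13 when any 1 library was left out.

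Dhrs3, which encodes the reductase, was at 146, 152, 204 and 201 CPM in PBS and at 74.7, 59.7, 52.4 and 60.2 CPM in LPS. Its 4 LPS libraries lay close together and below all PBS libraries. The level was 2.85-fold lower in LPS (log2 fold change -1.51, SE 0.15), with a range of -1.61 to -1.43 when any 1 library was left out. Among all 16117 genes tested it ranked 432 from the lowest fold change.

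The ratio of Dhrs3 to Rdh10 counts within a library does not depend on how libraries are scaled. In PBS it was 6.97, 6.48, 7.14 and 6.59, or 6.79 ± 0.31 (SD, n = 4), while levels of either gene differed by up to 1.46-fold. How often a pair of genes keeps so narrow a ratio in 4 libraries was not examined, so nothing is read from it. Deviations of the 2 genes from their group means (log2 CPM) had a Pearson's r of 0.06 over the 8 libraries. In LPS it was 1.81, 1.39, 0.812 and 0.958, or 1.24 ± 0.451 (n = 4). LPS replicates 3 and 4 thus held fewer counts of Dhrs3 than of Rdh10. Dhrs3 was lower and Rdh10 higher in every LPS library, so the ratios had to separate and nothing more is read from their separation. Transcript lengths were not used here, so a ratio of 1 does not mean equal numbers of transcripts.

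**Figure D2:**
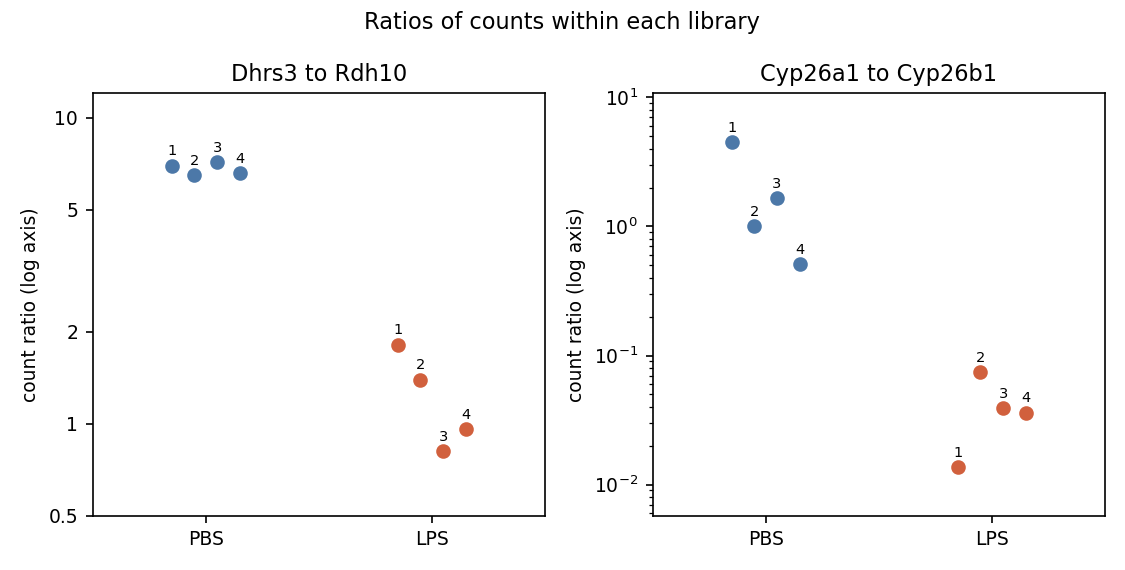
Ratio of Dhrs3 to Rdh10 counts (left) and of Cyp26a1 to Cyp26b1 counts (right) in each library, on log axes, with points numbered by replicate (n = 4 per group). The Dhrs3 to Rdh10 ratio sits between 6.48 and 7.14 in PBS and between 0.812 and 1.81 in LPS.

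The 3 retinaldehyde dehydrogenases, which make retinoic acid, did not share a direction, and each had overlapping groups. Aldh1a2, the enzyme of this family best known from stromal and mesenchymal cells, was at 73.8, 35.0, 55.8 and 37.0 CPM in PBS and at 88.7, 85.0, 94.9 and 44.4 CPM in LPS. LPS replicates 1 to 3 were above all PBS libraries, and LPS replicate 4 fell within the PBS range. Its difference on the log2 scale was 0.63 (SE 0.30). It was 0.87 without PBS replicate 1, the PBS library with the most, and 0.49 without PBS replicate 2.

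Aldh1a1 was scarcer, at 6.05, 2.97, 12.0 and 2.97 CPM in PBS and 5.66, 3.17, 1.04 and 3.28 CPM in LPS. PBS replicate 3 held the most and LPS replicate 3 the least, and the remaining libraries lay between 2.97 and 6.05 CPM. Its log2 fold change of -0.87 (SE 0.58) was -0.29 without PBS replicate 3. Aldh1a3, the third of these enzymes, was at 8.20, 12.5, 3.60 and 6.68 CPM in PBS and at 10.6, 2.87, 15.9 and 11.4 CPM in LPS. The lowest and the highest of its 8 values were both LPS libraries (replicates 2 and 3), and its log2 fold change of 0.40 (SE 0.51) was 0.10 without LPS replicate 3 and 0.73 without PBS replicate 2.

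The ratio of Aldh1a2 to Aldh1a1 counts was 12.2, 11.8, 4.67 and 12.5 in PBS and 15.7, 26.8, 91.4 and 13.5 in LPS. Every LPS library was above every PBS library, but LPS replicate 4 exceeded the highest PBS library by little. Neither gene alone separated the groups. How often the ratio of a pair of genes does so over all genes was not examined, so nothing is read from this separation. Fibroblast markers, 7 of 12 of which rose and 0 fell, summed to 12979 to 16324 CPM in PBS and 18536 to 28453 CPM in LPS. Their part in the levels of Aldh1a2 was not tested.

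Crabp2, the binding protein that delivers retinoic acid to the nucleus, was at 84.5, 138, 81.2 and 186 CPM in PBS and at 88.8, 91.7, 95.2 and 55.3 CPM in LPS. PBS replicates 2 and 4 were the highest libraries, PBS replicates 1 and 3 were level with LPS, and LPS replicate 4 was the lowest. Its log2 fold change of -0.57 (SE 0.29) was -0.29 without PBS replicate 4. Squamous epithelium markers summed to 5543, 7999, 5354 and 9796 CPM in PBS, the same order of libraries as Crabp2, and to 4550, 3431, 4130 and 4565 CPM in LPS, where the order differed. Krt5 and Krt13 were the most abundant of these markers and weigh most in the sum. Matches of order between other marker lists and members were not counted, so nothing is read from this one. Whether squamous epithelium bears on the spread of Crabp2 was not tested.

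Cyp26a1, which clears retinoic acid, showed the largest difference of the 9 genes and ranked 4 from the lowest fold change among all genes tested. It had 1633, 342, 489 and 117 counts in PBS and 3, 12, 17 and 8 counts in LPS. In CPM these were 41.7, 8.47, 12.0 and 3.51 in PBS and 0.0741, 0.307, 0.431 and 0.196 in LPS. The lowest PBS library was above the highest LPS library, although PBS libraries themselves differed by up to 11.9-fold. PBS replicate 1 stood highest, and LPS replicate 1 was at 3 counts, the floor used here. Its level was 64.7-fold lower in LPS (log2 fold change -6.02, SE 0.90), and the log2 value was -4.98 without PBS replicate 1.

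Smooth muscle markers, led by Tagln and Myh11, summed to 13893, 11389, 12130 and 5034 CPM in PBS, which is the order of libraries that Cyp26a1 followed there. In LPS they summed to 4229, 5108, 5822 and 6123 CPM, where the order differed from that of Cyp26a1. The smooth muscle sum of PBS replicate 4 lay within the LPS range, while its Cyp26a1 level did not. Endothelial markers were also highest in PBS replicate 1 (1047 CPM, against 480 to 790 CPM in the other PBS libraries), and lay between 607 and 885 CPM in LPS. T, NK and B cell markers (138, 88.2, 118 and 80.8 CPM in PBS) had the same order of PBS libraries as Cyp26a1 too. PBS replicate 1 was also the highest PBS library for fibroblast, macrophage, red cell and fat markers. How often a marker list follows such an order was not examined, so nothing is read from the match. Whether any of these cell types bears on the spread of Cyp26a1 among PBS libraries was not tested.

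Cyp26b1, the second enzyme of retinoic acid breakdown, showed a far smaller difference than Cyp26a1. It was at 9.27, 8.44, 7.27 and 6.89 CPM in PBS and at 5.41, 4.12, 11.0 and 5.43 CPM in LPS. LPS replicates 1, 2 and 4 were below all PBS libraries and LPS replicate 3 was above them. On the log2 scale the difference was -0.30 (SE 0.29), or -0.68 without LPS replicate 3 and -0.14 without LPS replicate 2. Within a library the ratio of Cyp26a1 to Cyp26b1 counts was 4.499, 1.003, 1.66 and 0.509 in PBS and 0.0137, 0.0745, 0.0393 and 0.036 in LPS. Cyp26c1, the remaining gene of the family and no member here, fell below the filter on low counts, at 0.106 ± 0.084 CPM in PBS and 0.0123 ± 0.0142 CPM in LPS (n = 4 per group).

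**Figure D3:**
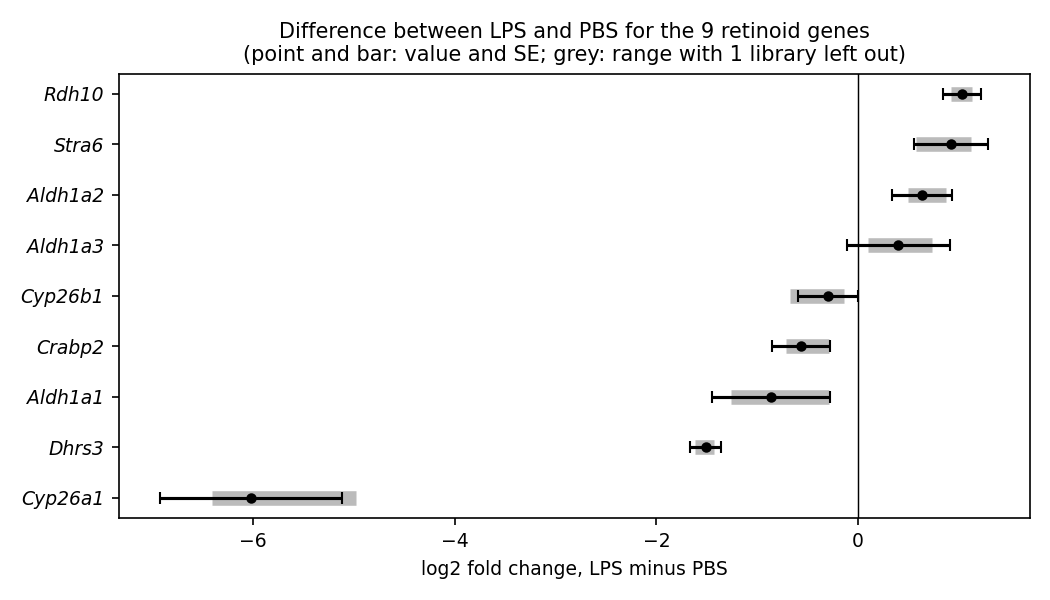
Log2 fold change (LPS minus PBS) of each of the 9 genes (point) with its SE (black bar) and the range of the value when any 1 library is left out (grey band). Cyp26a1 lies at -6.02 with a band from -6.40 to -4.98, and the bands of Rdh10 and Dhrs3 are the narrowest relative to their values.

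The genes also differed in how evenly they were expressed within PBS. The coefficient of variation over the 4 PBS libraries was 13.7% for Cyp26b1, 17.1% for Rdh10 and 17.6% for Dhrs3. It was 70.7% for Aldh1a1 and 105% for Cyp26a1. In LPS it was lowest for Dhrs3 (15.1%) and highest for Cyp26a1 (60.5%), the latter at counts so low that counting error adds to it.

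Deviations from the group means showed no common rise and fall of the 9 genes over the 8 libraries. Over the 36 pairs of members, Pearson's r of these deviations (log2 CPM) ran from -0.82 for Stra6 with Cyp26b1 to 0.71 for Aldh1a3 with Cyp26b1, with a median of -0.07. Cyp26a1 and Dhrs3, both lower in LPS, had an r of -0.73 within groups. For Cyp26a1 and Cyp26b1 it was 0.44 within groups, and 0.56 for log2 CPM over the 8 libraries. These values describe 8 libraries that share depth and tissue sampling, and no test was made of them. For Cyp26a1 they also carry the counting error of its 3 to 17 counts in LPS.

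The genes most like Cyp26a1 were sought among the 13527 tested genes whose mean reached 1 CPM. Over the 8 libraries the highest Pearson's r of log2 CPM belonged to Tbc1d2 (0.98), Tsc22d1 (0.98), Foxj3 (0.98), P2ry14 (0.98) and Tmem100 (0.97). All 5 were lower in LPS without overlap, but by far less than Cyp26a1. Picking by r over both groups brings this direction and separation with it, so nothing is read from them. Tmem100, a membrane protein known from endothelium, was at 109 ± 18.2 CPM in PBS and 45.0 ± 8.9 CPM in LPS (log2 fold change -1.28, SE 0.17). Tbc1d2, a GTPase-activating protein, was at 35.0 ± 2.25 and 27.2 ± 0.746 CPM (-0.36, SE 0.07). By deviations from the group means the highest r belonged to Zfp579 (0.997), Nova1 (0.98), Cdr2 (0.97), Ltbp2 (0.97) and St8sia4 (0.97). None of these 5 passed the test between LPS and PBS (edgeR adjusted p of 0.0974 to 0.763), and their log2 fold changes were 0.44 for Zfp579, 0.70 for Nova1, -0.61 for Cdr2, 1.49 for Ltbp2, a matrix protein of elastic fibres, and 0.14 for St8sia4. Thus Cdr2 alone of the 5 had the sign of Cyp26a1. These genes were picked for their likeness out of all those compared, and the r values are a description over 8 libraries. In LPS, Cyp26a1 had only 3 to 17 counts, so counting error adds to its deviations in those libraries.

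The other genes of the pathway were taken from 4 lists written with earlier results of these data known, not picked for how they moved. Of 75 genes, 63 could be tested, and 4 rose and 3 fell, which is 11.1% against 16.9% of all genes tested (edgeR, adjusted p under 0.05). Their median log2 fold change was -0.06. The number that fell was 0 without PBS replicate 2, 1 without PBS replicate 3 or LPS replicate 1 or 3, and 5 with PBS replicate 1 and LPS replicate 2 both left out. DESeq2, which called 13.0% of all genes higher and 13.0% lower, called 8 pathway genes higher and 10 lower. Among all 16117 genes tested, limma-voom called 1429 higher and 1185 lower. The share of all genes at an unadjusted p under 0.05 is not given, so nothing is read from pathway counts at that threshold.

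**Figure D4:**
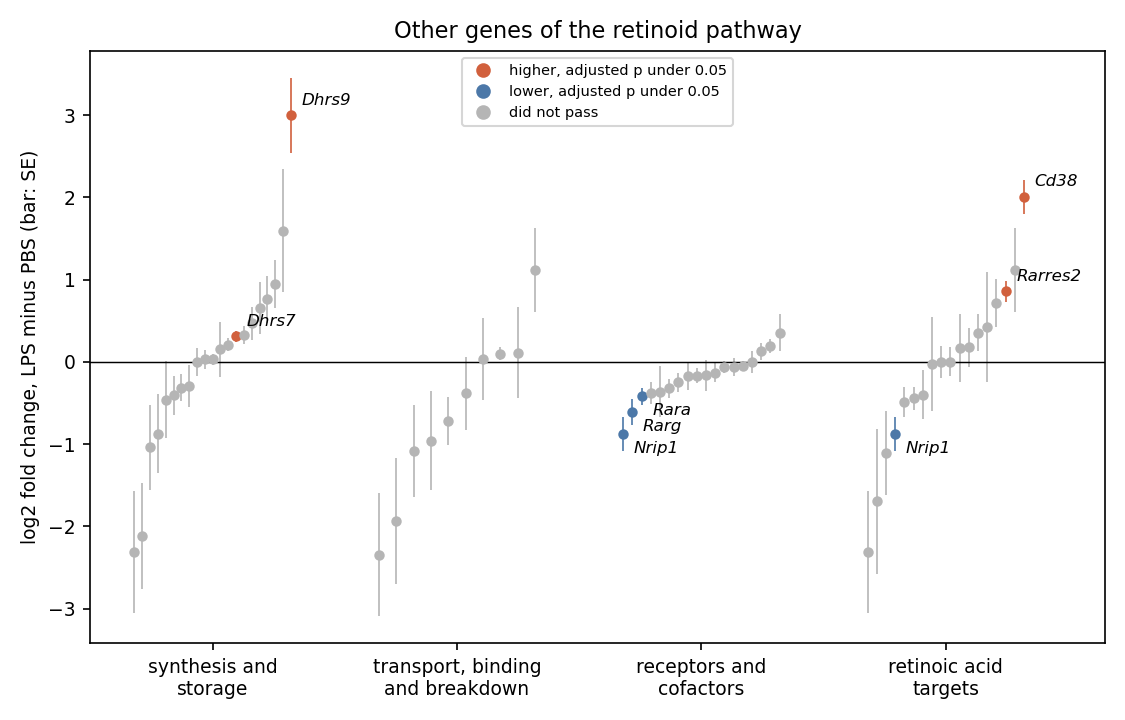
Log2 fold change (LPS minus PBS) with SE of the tested genes of 4 retinoid lists, sorted within each list, in orange where higher and in blue where lower at an adjusted p under 0.05. Dhrs9 at 2.995 and Cd38 at 2.01 stand highest, and Rara, Rarg and Nrip1 are the called genes below 0 (genes on 2 lists are drawn in both).

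In synthesis and storage, 2 of 21 tested genes rose and 0 fell in edgeR (7 and 2 at an unadjusted p under 0.05, 6 and 2 in DESeq2, 2 and 0 in limma-voom). The edgeR share was 9.52%, against 16.9% of all genes tested. Dhrs9, a short-chain dehydrogenase that acts on retinol and on steroids, was at 10.1, 2.77, 10.3 and 8.06 CPM in PBS and at 89.7, 61.0, 69.3 and 29.3 CPM in LPS. Every LPS library was above every PBS library, and the log2 fold change was 2.995 (SE 0.46, edgeR adjusted p = 0.00431). Dhrs7, a related reductase, rose by 0.31 (SE 0.07, edgeR adjusted p = 0.02), from 58.6 ± 2.94 to 72.6 ± 4.11 CPM (n = 4 per group). It no longer passed when PBS replicate 2, PBS replicate 3 or LPS replicate 2 was left out, or when PBS replicate 1 and LPS replicate 2 both were.

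Lrat, which esterifies retinol for storage, was at 528, 181, 166 and 76.2 CPM in PBS and at 55.0, 29.1, 96.0 and 11.5 CPM in LPS. PBS replicate 1 was the highest, as it was for Cyp26a1, and LPS replicate 3 lay above PBS replicate 4. Its value of -2.31 (SE 0.74, edgeR adjusted p = 0.0643) did not pass, whereas DESeq2 called it (-2.32, adjusted p = 0.0222). Without PBS replicate 1 the value was -1.56.

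In transport, binding and breakdown, 0 of 10 tested genes passed in edgeR, against 16.9% of all genes tested. The median log2 fold change of the 10 was -0.55. At an unadjusted p under 0.05 there were 0 higher and 3 lower, in DESeq2 0 and 1, and in limma-voom 0 and 0.

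Among receptors and cofactors, 0 of 18 tested genes rose and 3 fell in edgeR, which were the receptors Rara and Rarg and the corepressor Nrip1. That is 16.7% called, near the 16.9% of all genes tested. At an unadjusted p under 0.05 there were 0 higher and 5 lower, in DESeq2 also 0 and 5, and in limma-voom 0 and 3. Rara was at 68.0, 88.7, 93.1 and 91.3 CPM in PBS and at 62.3, 66.6, 63.6 and 62.3 CPM in LPS. PBS replicate 1 came close to LPS, and the groups did not overlap. Rara fell by 0.42 on the log2 scale (SE 0.10, edgeR adjusted p = 0.0265). It passed the threshold when PBS replicate 1 or LPS replicate 2 was left out, and not when any of the other 6 libraries was.

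Rarg, the receptor prominent in squamous epithelium, was at 92.5, 119, 119 and 132 CPM in PBS and at 72.7, 75.8, 60.2 and 94.8 CPM in LPS. LPS replicate 4 lay just above PBS replicate 1. Rarg fell by 0.61 on the log2 scale (SE 0.15, edgeR adjusted p = 0.0298). It passed the threshold when PBS replicate 1 or LPS replicate 4 was left out, and not when any of the other 6 libraries was. The third receptor, Rarb, which is known as a target of retinoic acid, was at 2.46 ± 0.52 CPM in PBS and 3.15 ± 0.53 CPM in LPS (n = 4 per group), and its value of 0.36 (SE 0.23, edgeR adjusted p = 0.319) did not pass.

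Among 18 tested genes known to respond to retinoic acid in other cells, 2 rose and 1 fell in edgeR. This share of 16.7% is near the 16.9% of all genes tested. At an unadjusted p under 0.05 there were 3 higher and 4 lower, in DESeq2 2 and 4, and in limma-voom 2 and 1. Cd38, an ectoenzyme of NAD breakdown, rose from 8.99 ± 1.16 to 36.2 ± 10.7 CPM (2.01, SE 0.20, edgeR adjusted p = 0.000887, n = 4 per group). Rarres2, which encodes the chemoattractant chemerin, rose from 32.3 ± 5.55 to 58.6 ± 5.35 CPM (0.86, SE 0.13, edgeR adjusted p = 0.00377). Nrip1, on this list as well as among the cofactors, fell from 211 ± 46.1 to 115 ± 24.4 CPM (-0.88, SE 0.21, edgeR adjusted p = 0.0222), and did not pass when PBS replicate 2 was left out. Neutrophil markers summed to 54.8 to 82.2 CPM in PBS and 488 to 1773 CPM in LPS, and macrophage markers to 854 to 1323 and 1718 to 2549 CPM. Their part in the levels of Cd38, Rarres2 and Dhrs9 was not tested.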

How the data were processed

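Cervix RNA of the PBS and LPS groups (4 samples each) was made into libraries with the VAHTS Universal V6 kit, per the labels' protocols. The deposited table holds raw counts as whole numbers, with gene symbols in rows. Per the submitters' processing notes the build was mRatBN7.2, and the tools named are HTSeq, HISAT2, fastp and R 3.2.0. The annotation and the strand setting are not stated there, so overlapping or antisense genes could not be told apart. Columns were matched to samples by library name.

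Genes were kept by filterByExpr, scaled by TMM and compared with edgeR 4.0.16 in R 4.3.3 (robust quasi-likelihood, no covariate, Benjamini-Hochberg over all genes, threshold 0.05). The SE is the log2 fold change divided by the root of F. Likeness used log2 CPM with a prior count of 2. Floors cover counting error only. The procedure was tested on simulated data. No library was a copy of another: in the 12 pairs within groups, chi-square over its degrees of freedom was 44.7 or more.

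Members and lists were chosen with earlier results of these data known. Named were the 9 members, up to 4 called genes per list with the lowest adjusted p, Rara, Rarb, Rarg, Lrat and 1 gene that is not reported here, the 5 genes most like Cyp26a1 by each measure, and the 2 most abundant genes of a marker list where described, of which those of smooth muscle and both epithelia are printed. Cyp26c1, Tmem87a and LOC102550345 were named after their values were seen. Alternatives tried were DESeq2 1.42.0, limma-voom (limma 3.58.1), upper-quartile or RLE scaling, no filter, a filter of 1 CPM in 4 libraries, each library left out, PBS replicate 1 and LPS replicate 2 left out together, and the replicate number as a block. Of the marker lists, uterine epithelium (1 of 5 tested rose), endothelium (1 of 10 fell), mesothelium (1 of 6 rose), fat (0 of 7 passed), nerve (3 of 9 fell), T, NK and B cells (3 of 10 rose) and mucous epithelium (2 of 15 rose and 3 fell) are given here only.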

Additional observations from a re-analysis of the deposited data

Results flagged for a closer look

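Of 38 groups of 4 libraries examined for the 9 members and the named pathway genes, 1 held a library whose gap to the nearest of the others took up more of the range than Dixon's critical value for groups of this size allows. It was Crabp2 in LPS replicate 4, at 55.3 CPM while the other LPS libraries held 88.8 to 95.2 CPM. Chance flags about 5% of such groups.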

How the results depend on the processing

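The log2 fold change of Cyp26a1 stayed negative under all alternatives, with a range of -6.40 (LPS replicate 3 left out) to -4.98 (PBS replicate 1 left out), and the 8 other members kept their sign under all alternatives run. In limma-voom Cyp26a1 was at -5.68 with an SE of 1.68, larger than the 0.90 of edgeR. The counts of all genes called were 1529 higher and 1200 lower, 904 to 1385 and 563 to 1199 with 1 library left out, and 2099 and 2089 with DESeq2. Pathway genes called higher were 3 to 5 and lower 0 to 4 with 1 library left out (3 lower in the full set), 8 and 10 with DESeq2, and 5 were lower with PBS replicate 1 and LPS replicate 2 both left out. Leaving out a library leaves fewer samples, and the cause of the other shifts was not tested. Replicate numbers are shared between the groups only as numbers: the correlation of deviations of same-numbered libraries was -0.13, -0.18, -0.09 and 0.21. The numbers are those of the sample titles, and the library name of LPS replicate 4 carries a different number. With the replicate number as a block, 1151 genes were higher and 845 lower, Cyp26a1 was at -5.51, Rara (adjusted p = 0.051) and Dhrs7 (0.0617) did not pass, and Lrat did (0.0242). Depth limits Cyp26a1 in LPS, where 3 to 17 counts were found.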
